A study of Rattus norvegicus with 13 samples.

Results

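Co-culture of a rat cholangiocarcinoma line with a fibroblastic line from the same kind of tumour was profiled on 2 arrays, and these are compared here with 7 arrays of the lines grown alone. The 9 arrays were taken from the 13 of the series by their titles: those naming co-culture, 3 of the epithelial line alone and 4 of the fibroblastic line alone. The remaining arrays, of tumour tissue, were left out of the main comparison. Both lines came from tumours that arose in Fischer 344 rats after BDEsp cells, spontaneously transformed bile duct epithelial cells of low malignancy, were placed in the bile duct. The epithelial line, BDEsp-TDEH10, is the cancer cell, and the fibroblastic line, BDEsp-TDFE4, is a cancer-associated fibroblast positive for α-SMA (smooth muscle actin). Every culture was embedded in a gel of type I collagen from rat tail, and the labels name no further treatment. Each line is known here by a single clone name, so differences between the lines may be differences between those isolates. 1 array was labelled as epithelial cells in co-culture and 1 as fibroblastic cells in co-culture, called the epithelial-labelled and the fibroblastic-labelled array below. How cells were separated before extraction, if they were, and how many fibroblastic cells went into these gels could not be read from the labels. No label says that the arrays of a line came from separate cultures, so p-values measure only the spread between arrays, which may be technical.

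In cholangiocarcinoma, cancer-associated fibroblasts surround the malignant ducts with a dense, collagen-rich stroma. They are commonly recognised by smooth muscle actin and other contractile proteins, and they exchange growth factors, cytokines, prostaglandins and matrix enzymes with the cancer cells. A mixed gel holds RNA of both cell types, so a gene's level in an array of the mixture must lie between its levels in the separate lines unless at least 1 of the cell types expresses it differently there. A gene was therefore called above (or below) both lines when the mean of the co-culture arrays differed in the same direction from each line at a limma adjusted p under 0.05 and both arrays lay outside the range of the 7 arrays of the lines alone. A second reference was the mean of the lines on the linear scale in equal parts, called the equal mixture. Values are log2 expression as deposited, so a difference of 1 is 2-fold. With 1 array per co-culture label, the fit took its error from the replicated lines, and the co-culture arrays were assumed to vary as those do.

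The 9 arrays had medians over all probe sets between 6.15 and 6.24. Fibroblastic arrays 1 and 3 correlated with each other at 0.987 over genes and arrays 2 and 4 at 0.990, against 0.947 to 0.961 across these pairs. Arrays 2 and 4 therefore stood apart from arrays 1 and 3, and counts without arrays 2 and 4 are given beside the main ones. The 3′ minus 5′ difference of the actin control probe sets, a sign of RNA quality, was 0.962 and 0.848 in the co-culture arrays, 0.856 to 1.47 in arrays of the epithelial line and 1.05 to 2.65 in those of the fibroblastic line. The co-culture arrays thus lay at or near the lower end of that measure, and its part in the comparisons was not tested.

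Both co-culture arrays held the markers of both lines, whatever their label. Krt19, a keratin of bile duct epithelium, read 13.49 in the epithelial-labelled array and 13.21 in the fibroblastic-labelled array, against 13.90 to 14.24 in epithelial arrays and 4.01 to 4.29 in fibroblastic arrays. The junction cadherin Cdh1 read 11.85 and 12.03, near the 12.55 to 12.78 of the epithelial line and far above the 3.58 to 4.35 of the fibroblastic line. The adhesion molecule Epcam (12.47 and 11.96), Krt7 (12.61 and 12.97) and the surface antigen Msln (11.49 and 12.10) were likewise high in both arrays. Col1a1, a chain of type I collagen, read 12.61 and 13.04, against 5.57 to 5.85 in epithelial arrays and 13.43 to 13.96 in fibroblastic arrays. The fibroblastic-labelled array was therefore no array of fibroblastic cells alone. The arrays correlated with each other at 0.983 over genes, and with the arrays of either line at 0.860 to 0.902, and for 97.5% of genes they differed by less than 2-fold (median absolute difference 0.176).

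Marker lists of other cell types held no gene called outside both lines or against the equal mixture. These lists held 24 macrophage and antigen presenting cell genes, 20 T, B and NK cell genes, 18 endothelial genes and 22 hepatocyte genes. Over all genes 1.65% and 1.03% were called above and below both lines, and 2.49% and 4.38% above and below the mixture. In lists of this size counts of 0 are near those shares. Against the fibroblastic line 2 macrophage, 2 endothelial and 1 hepatocyte genes were called higher, beside 8.47% of all genes. Against the epithelial line 1 lymphocyte gene was called lower, beside 7.36%. The mean of the macrophage list was 5.61 and 5.53 in the co-culture arrays and 5.23 to 5.55 in the lines. The leukocyte antigen gene Ptprc was near the bottom of the scale at 4.40 and 4.50, within its range in the lines, as were Cd3e (4.90 and 4.99) and Alb (4.93 and 4.90) at low readings. Cd14 read 11.49 and 10.58, but epithelial array 3 read 11.34, so that gene was high without any co-culture. Both co-culture arrays lay above all 7 others for 2 genes in each of the macrophage, lymphocyte and endothelial lists. None of these was called above both lines, and 5.8% of all genes lay above all 7 arrays. Outside these lists, genes also expressed by myeloid cells were called above both lines: Mnda, a myeloid nuclear antigen gene (7.27 and 9.32 against 4.27 to 4.89), S100a8, S100a9 and Lcn2. For Mnda both co-culture arrays lay above the range of the lines in only 1 of its 2 probe sets. Whether other cells had a part in these 4 genes was not tested.

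To place the co-culture between the lines, 886 genes were used that differed between the lines by a called difference of at least 8-fold. Of all genes, 20.9% were called higher in the epithelial line and 16.6% lower. Over the 355 of these that were higher in the epithelial line, the median gene stood at 54.6% of the way from the fibroblastic to the epithelial mean in the epithelial-labelled array and at 40.5% in the fibroblastic-labelled array, on the linear scale. The middle 50% of these genes spread from 37.1% to 84.1% and from 24.3% to 62.0%. Over the 531 genes higher in the fibroblastic line the medians were 71.2% and 64.0% of the way to the epithelial mean, so those genes lay further toward the epithelial line than the epithelial genes did. Medians of the single arrays of a line grown alone varied, with that array left out of its line's mean, by an SD of 27.9 percentage points for the epithelial genes (n = 3) and 5.8 for the fibroblastic genes (n = 4). For the epithelial genes the gap between the co-culture arrays is thus within the spread of single epithelial arrays. For the fibroblastic genes the gap, 71.2% against 64.0%, is larger than the SD of 5.8. It is smaller than the span of single fibroblastic arrays, -5.15% to 8.36%. In RNA from a mixed gel, fewer cells of a type and less RNA of a gene per cell cannot be told apart.

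Against the epithelial line 1133 of 14217 genes (7.97%) were called higher in co-culture and 1047 (7.36%) lower, and against the fibroblastic line 1204 (8.47%) higher and 1258 (8.85%) lower. Above both lines were 234 genes (1.65%) and below both 146 (1.03%). Genes above both lines lay a median of 1.48 (2.8-fold) over the nearer line, and 67 of them at least 4-fold over it. Those below both lines lay closer, with a median of 0.902 (1.87-fold) and a single gene at least 4-fold under the nearer line. Against the equal mixture 354 genes (2.49%) were called higher and 623 (4.38%) lower, and 232 of the 234 and 143 of the 146 were among them. Mixtures were also formed from each of the 12 pairs of an epithelial with a fibroblastic array, without a test. Both co-culture arrays lay above all 12 for 1688 genes (11.9%) and below all 12 for 3600 (25.3%). Of the 90 genes above both lines that also differed between the lines, 60 were higher in the fibroblastic line and 30 in the epithelial line. Leaving out fibroblastic arrays 2 and 4 gave 315 genes above both lines and 172 below, and 529 above and 911 below the mixture. Leaving out the epithelial-labelled array gave 137 above both and 23 below, and leaving out the fibroblastic-labelled array gave 133 and 52. Leaving out 1 array of a line gave 197 to 218 above both and 83 to 126 below. The genes called above both in every one of the 9 fits that left out an array numbered 94, and those called below both numbered 12.

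**Figure D1:**
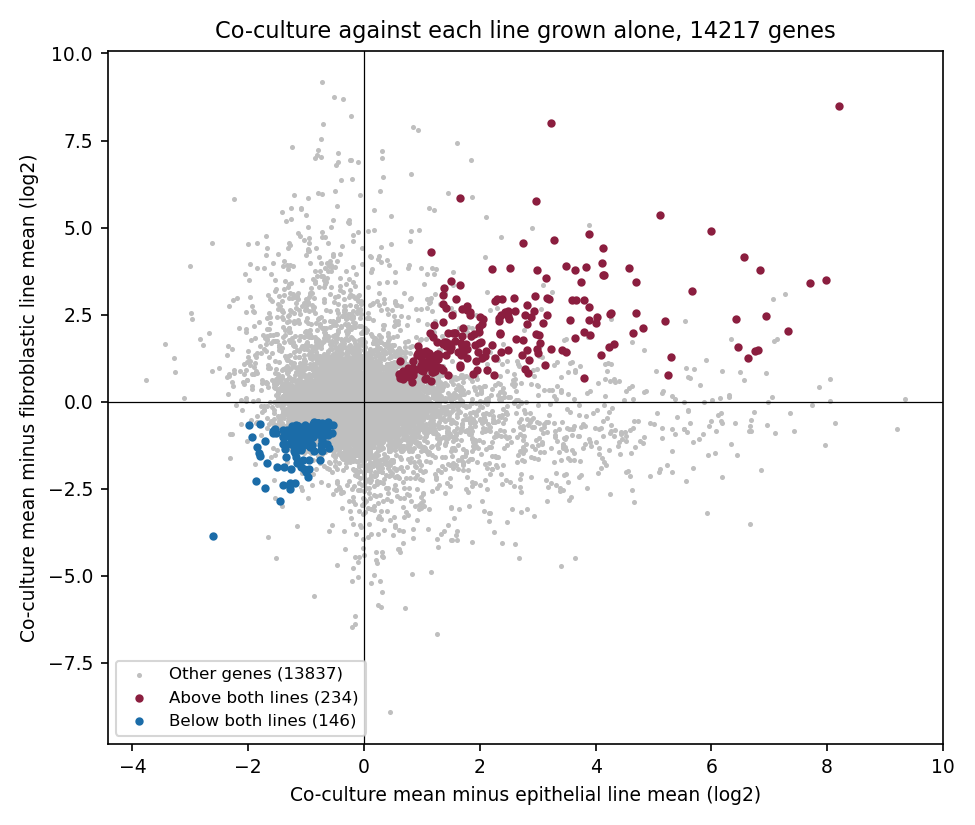
Each point is 1 of 14217 genes, with the co-culture mean (2 arrays) minus the epithelial line mean (3 arrays) on the x axis and minus the fibroblastic line mean (4 arrays) on the y axis, both in log2. The 234 genes called above both lines fill the upper right and reach much larger differences than the 146 genes called below both lines in the lower left, and other genes are grey.

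The gene furthest above both lines was Wfdc18, which encodes a secreted protein of the whey acidic protein family. It read 11.62 in the epithelial-labelled and 13.59 in the fibroblastic-labelled array, against 4.02, 5.01 and 4.18 in the epithelial line and 3.86, 4.45, 3.87 and 4.28 in the fibroblastic line. Both lines were thus near the bottom of the scale and both co-culture arrays near its top, a difference of 8.20 (SE 0.33, limma adjusted p = 3.15e-06) from the epithelial line, which was the nearer. The ratio of 295 is to a reading that may be background, so it is no exact fold. Angptl8, a secreted regulator of lipoprotein lipase, read 8.79 and 8.74, against 4.69, 4.59 and 4.63 in the epithelial line and 4.81, 4.17, 4.30 and 4.16 in the fibroblastic line. The transcription factor gene Tfap2c read 8.60 and 8.09, against 4.62, 4.64 and 4.83 in the epithelial line and 4.61, 4.64, 4.75 and 4.29 in the fibroblastic line. The co-culture arrays differed by 0.05 for Angptl8 and 0.50 for Tfap2c, beside a median absolute difference of 0.176 over genes. For both genes they lay above the range of the lines, which the call itself requires. The differences from the epithelial line were 4.13 (SE 0.22, adjusted p = 1.31e-05) for Angptl8 and 3.65 (SE 0.19, adjusted p = 1.05e-05) for Tfap2c.

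Ranked by the distance of the lower co-culture array from the highest of the 7 others, the 20 genes furthest above both lines read 5.57 to 295 times the nearer line mean. For Wfdc18, Angptl8, Armh4, Mmp3, Sprr2d, Tfap2c, Fxyd6, Elmod1 and Mnda that mean was under 5, where a reading may be background, and their ratios are to that reading rather than exact folds. Secreted and matrix proteins among them were the stromelysin Mmp3 (34.7-fold over the nearer line), the olfactomedin Olfm1 (30-fold), the fibulin Fbln2 (17.9-fold), the tenascin Tnn (11.3-fold) and Igfbp6, a binding protein of insulin-like growth factors (5.87-fold). Others act at membranes or inside cells: Nsg1, an endosomal protein of neurons (15.7-fold), Sprr2d of the cornified envelope (14.8-fold), Armh4 (14.3-fold), Gas7 (12.5-fold), Ramp3, a subunit of adrenomedullin receptors (12.4-fold), and the myeloid nuclear antigen gene Mnda (11.3-fold). The remainder were Fxyd6, which regulates the sodium pump (10.9-fold), Gsap (8.83-fold), the TNF family ligand Tnfsf9 (7.88-fold), Elmod1 (7.77-fold), Lrrc15, a surface protein of activated fibroblasts (6.80-fold), and Gfpt2, an enzyme at the entry of the hexosamine pathway (5.57-fold). Most were near the bottom of the scale in both lines, but Tnn, Igfbp6 and Fbln2 were already higher in the fibroblastic line than in the epithelial line. Of the 20, 19 kept their call whichever array was left out. The exception was Fbln2, whose fibroblastic readings of 10.18, 6.57, 10.13 and 7.01 followed the split between arrays 1 and 3 and arrays 2 and 4. Its adjusted p rose to 0.125 without the epithelial-labelled and 0.0935 without the fibroblastic-labelled array, and to 0.0602 and 0.0521 without fibroblastic array 4 or epithelial array 3. Among all 234 genes, 57 had a mean under 5 in the arrays of the lines alone, where a reading may be background, and 67 were read by several probe sets, of which all lay outside the range in 38.

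**Figure D2:**
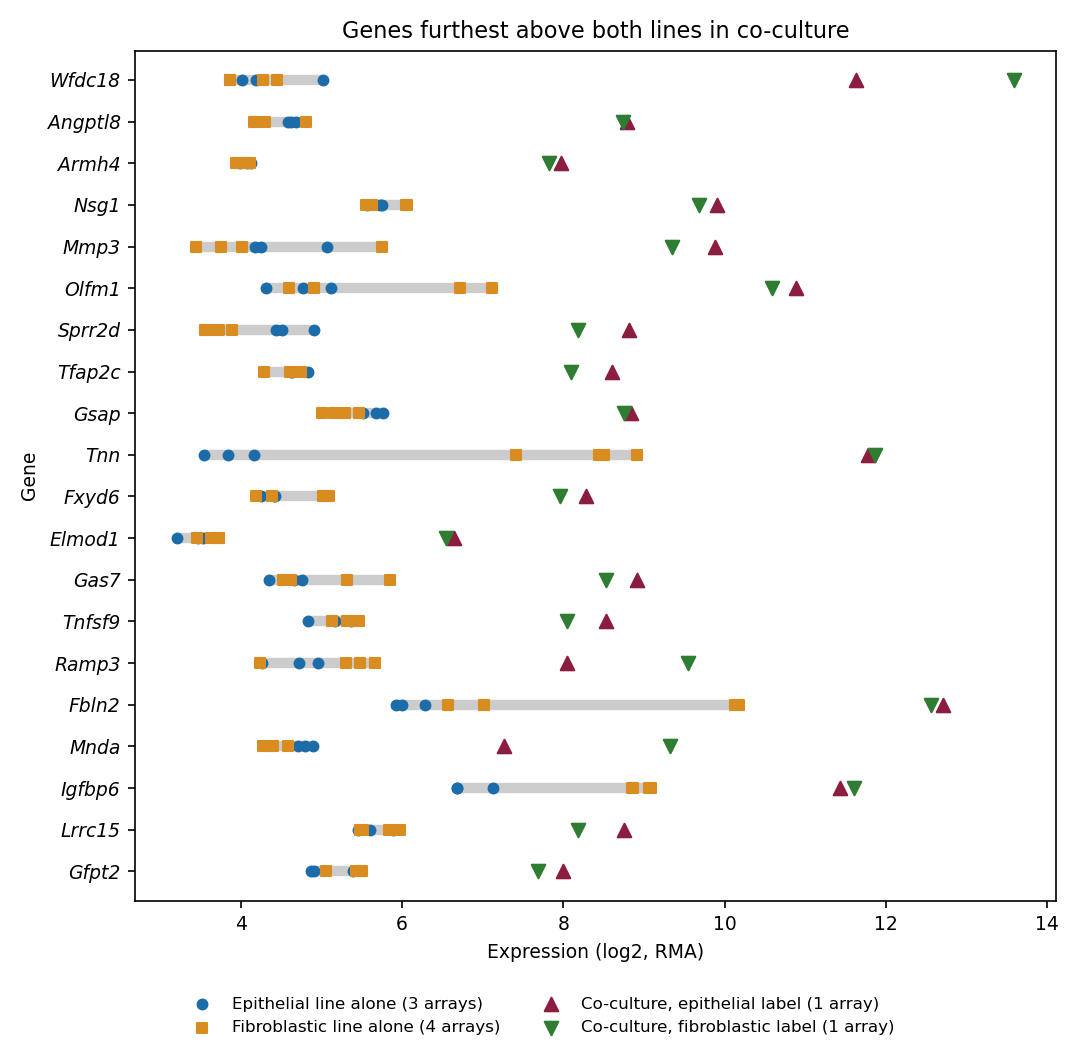
Expression in log2 (x axis) of the 20 genes furthest above both lines (rows), with 3 epithelial arrays as circles, 4 fibroblastic arrays as squares, the co-culture arrays as triangles and the range of the 7 arrays of the lines alone as a grey bar. In every row both triangles lie to the right of the bar, as the call requires. Rows run from Wfdc18 at 11.62 and 13.59 at the top to Gfpt2 at 8.00 and 7.69 at the bottom.

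Genes of the hypoxia response and of glycolysis read high in both co-culture arrays. When oxygen is low, cells keep hypoxia-inducible factors, which bind DNA at short motifs that hold ACGTG or GCGTG and raise genes of glucose uptake, glycolysis, lactate export, mitochondrial turnover and collagen hydroxylation. Of 26 such genes measured, 7 (26.9%) were called above both lines and 0 below, beside 1.65% and 1.03% of all genes. Both co-culture arrays lay above all 7 arrays of the lines alone for 18 of the 26, beside 825 (5.8%) of all 14217 genes. The median difference from the equal mixture was 1.37 over the list and -0.0849 over all genes. Above the mixture 10 members were called and below it 0, beside 2.49% and 4.38% of all genes. The list's mean was 11.29 and 11.14 in the co-culture arrays, 9.37 to 10.08 in epithelial arrays and 9.11 to 9.35 in fibroblastic arrays.

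The mitophagy receptor gene Bnip3 had the largest called difference from the nearer line among those kept whichever array was left out. It read 12.55 and 12.13 in co-culture, against 9.10, 10.09 and 8.95 in the epithelial line and 9.34, 9.32, 9.16 and 9.36 in the fibroblastic line, which is 2.96 (SE 0.32, adjusted p = 0.000729) over the epithelial and 3.04 (SE 0.31, adjusted p = 0.000448) over the fibroblastic mean. P4ha2, a prolyl hydroxylase subunit needed for stable collagen, read 11.17 and 11.21, against 8.76, 8.63 and 8.29 in the epithelial line and 9.86, 9.01, 9.62 and 9.10 in the fibroblastic line. Gpi, the isomerase of the second step of glycolysis, read 12.83 and 12.63, against 10.97, 11.34 and 11.15 and 10.98, 10.52, 10.87 and 10.68. In all 3 genes both co-culture arrays lay above the 7 others, as the call requires. The remaining called members depended more on single arrays. Slc16a3, the lactate exporter, read 11.15 and 10.89 against 6.44 to 8.94 in the lines, and lost its call without the epithelial-labelled (adjusted p = 0.0995) or the fibroblastic-labelled array (adjusted p = 0.0766). Pdk1, which restrains entry of pyruvate into mitochondria, read 9.97 and 9.74 against 7.44 to 8.46, with an adjusted p of 0.0510 without the epithelial-labelled array. Ankrd37 (9.49 and 9.48 against 6.32 to 8.49) kept its call in 1 and the glycolytic kinase Pgk1 (13.86 and 13.87 against 11.95 to 13.11) in 4 of the 9 fits without an array, with an adjusted p of up to 0.138 and 0.102. The replicate block, too, ended the call of Ankrd37. Pdk1, Ankrd37 and Pgk1 are named to complete the list's count, after their values were seen.

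Other members were high without passing both tests. The prolyl hydroxylase gene Egln3, which marks hypoxia-inducible factors for breakdown, read 11.68 and 11.56, against 8.79, 10.71 and 9.78 in epithelial arrays and 5.21 to 6.48 in fibroblastic arrays, and was called above the mixture only (2.78, SE 0.55, adjusted p = 0.0251). That call ended without either co-culture array or epithelial array 3 (adjusted p up to 0.123). The vasodilator gene Adm read 9.94 and 10.32 against 5.15 to 8.67 in the lines, with adjusted p = 0.0667 against the epithelial line. Vegfa, a vascular growth factor also under control of these factors, was listed with growth factors: it read 12.22 and 11.81, against 9.14, 9.38 and 8.54 in the epithelial line and 10.50, 10.69, 10.29 and 11.01 in the fibroblastic line. It was called above both lines (1.40 over the fibroblastic line, SE 0.28, adjusted p = 0.0121), but not without the epithelial-labelled array (adjusted p = 0.0966). Oxygen in the gels, cell density and the age of the cultures were not found in the labels.

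**Figure D3:**
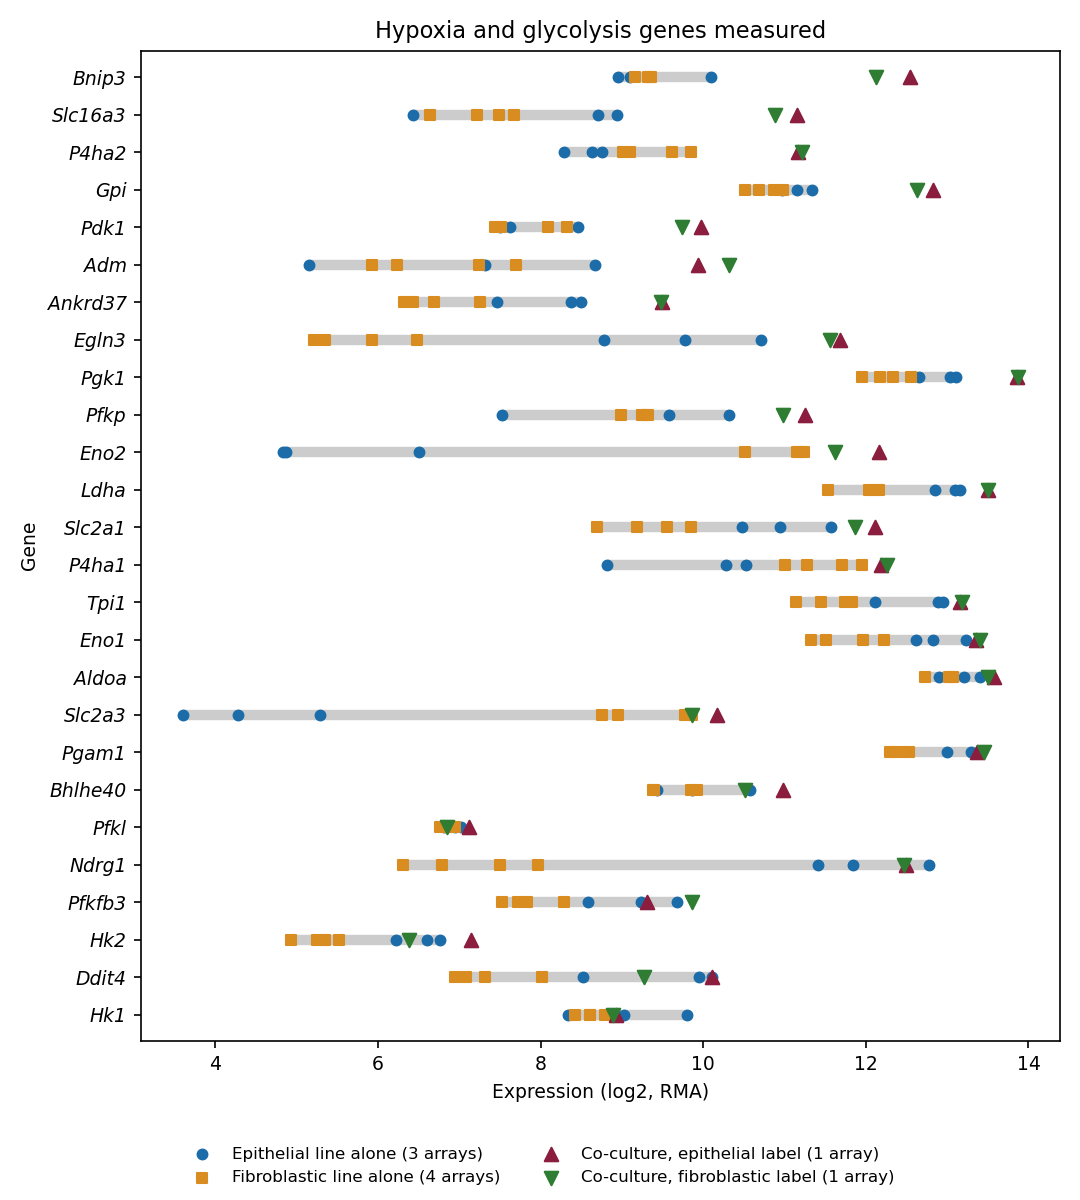
Expression in log2 (x axis) of the 26 hypoxia and glycolysis genes measured (rows), with 3 epithelial arrays as circles, 4 fibroblastic arrays as squares, the co-culture arrays as triangles and the range of the 7 arrays of the lines alone as a grey bar. Rows are ordered by the distance of the lower triangle from the bar, and in 18 of 26 rows both triangles lie to the right of it, with Bnip3 at 12.55 and 12.13.

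The promoters of 3 of the called genes are shown because they hold ACGTG, a motif through which hypoxia-inducible factors bind. They are the 250 bases before the RefSeq transcription start in the GRCr8 build, from the 5′ end, with each ACGTG on either strand in capitals: Bnip3 at chr1:203154963-203155212 on the minus strand, P4ha2 at chr10:38743644-38743893 on the plus strand and Ankrd37 at chr16:53001257-53001506 on the plus strand.
Bnip3: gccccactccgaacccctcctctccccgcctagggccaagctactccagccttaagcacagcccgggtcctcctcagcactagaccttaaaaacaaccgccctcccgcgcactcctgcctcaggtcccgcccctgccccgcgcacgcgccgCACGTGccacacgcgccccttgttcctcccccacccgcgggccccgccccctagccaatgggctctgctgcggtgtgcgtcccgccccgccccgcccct
P4ha2: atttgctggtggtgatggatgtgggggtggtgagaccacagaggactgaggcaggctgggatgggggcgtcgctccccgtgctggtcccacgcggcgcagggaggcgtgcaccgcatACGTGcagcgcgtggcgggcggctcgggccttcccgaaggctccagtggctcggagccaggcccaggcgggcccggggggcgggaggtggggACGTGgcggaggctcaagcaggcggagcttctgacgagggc
Ankrd37: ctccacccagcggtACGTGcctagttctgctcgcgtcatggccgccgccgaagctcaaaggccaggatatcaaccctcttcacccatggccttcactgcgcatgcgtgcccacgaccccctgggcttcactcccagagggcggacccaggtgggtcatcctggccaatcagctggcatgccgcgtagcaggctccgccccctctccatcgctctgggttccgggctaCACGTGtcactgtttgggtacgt
In Bnip3, and at the second place in Ankrd37, the motif lies in CACGTG, which reads the same on both strands and is also the motif of other factors. Of the 7 called genes 6 had a promoter in the table, and 3 of those (50%) held ACGTG, as did 10 of 23 (43.5%) over the measured list. The same 5 letters lie in 21.0% of the 11700 promoters of tested genes and in 19.3% of the 176 promoters of genes above both lines, so the larger set did not exceed the share in all tested genes. Of the 115 promoters of genes below both lines, 28.7% held it, more than among genes above both lines. Gpi, Slc16a3 and Pdk1 had no ACGTG in this window. The other motif named above, GCGTG, was neither counted nor marked. It occurs, on either strand, in the windows of Pdk1, Bnip3, P4ha2 and Ankrd37.

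Matrix enzymes and their inhibitors included some of the largest rises. These genes encode the metalloproteinases that cut collagen and other matrix proteins, and proteins that restrain them. Of 31 measured, 5 (16.1%) were called above both lines and 0 below, and 6 above and 3 below the equal mixture. Over all genes the same shares were 1.65%, 1.03%, 2.49% and 4.38%. The median against the mixture was 0.253 over the list and -0.0849 over all genes. Mmp3, a broad stromelysin, read 9.88 and 9.35, against 4.18, 5.07 and 4.24 in the epithelial line and 3.44, 4.02, 5.75 and 3.75 in the fibroblastic line, or 5.12 (SE 0.64, adjusted p = 0.00151) over the epithelial mean. The elastase gene Mmp12 read 7.31 and 6.46, against 4.68 to 5.06 and 4.36 to 5.03. Both kept the call without any single array. The inhibitor gene Timp3, already high in the fibroblastic line at 9.69 to 10.56, read 11.80 and 11.27, and the lysosomal protease gene Ctsl read 13.29 and 13.64 against 12.29 to 12.83 there. Those calls were weaker: Timp3 kept its call in 4 and Ctsl in 3 of the 9 fits without an array, ending without either co-culture array and without fibroblastic array 1 or 3 in both, and further without fibroblastic array 4 for Timp3, and without epithelial array 2 or fibroblastic array 2 for Ctsl. For Ctsl both co-culture arrays lay above the range of the lines in only 1 of its 2 probe sets. With the mean of its probe sets the call of Ctsl ended as well (adjusted p = 0.098). The stromelysin Mmp10 (5.34 and 4.59) was called, but not without the epithelial-labelled array (adjusted p = 0.318). Below the mixture were Mmp16, Mmp23 and the plasminogen activator inhibitor Serpinb2. The call of Mmp16 was kept in 1 of the 9 fits without an array, that without fibroblastic array 1 (adjusted p up to 0.307). It also ended with 3 parts epithelial to 1 part fibroblastic RNA and with each array's own position between the lines as the share. That of Serpinb2 ended without the fibroblastic-labelled array (adjusted p = 0.201) and with 1 part epithelial to 3 parts fibroblastic RNA (adjusted p = 0.101). Mmp23 read 6.55 and 6.11, like the epithelial line (6.19 to 6.45) and unlike the fibroblastic line (9.81 to 11.05).

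Of 32 chemokine and cytokine genes, 2 (6.25%) were above both lines, 0 below, 5 above the equal mixture and 1 below it, beside 1.65%, 1.03%, 2.49% and 4.38% of all genes. Il6, an inflammatory cytokine of fibroblasts, read 9.57 and 9.05, against 3.83, 4.0 and 4.49 in the epithelial line and 7.52, 6.68, 7.14 and 6.66 in the fibroblastic line. It was 2.31 over the fibroblastic mean (SE 0.30, adjusted p = 0.00148) and kept its call without any single array. Ccl2, which attracts monocytes, read 11.35 and 12.51, against 4.46, 4.13 and 4.08 in the epithelial line and 7.49, 10.19, 7.29 and 9.05 in the fibroblastic line. Its fibroblastic readings again split by array, and the call ended without the fibroblastic-labelled array (adjusted p = 0.111). The epithelial cytokines Il33 (12.99 and 13.26, against 13.09 to 13.52 in the epithelial line) and Cxcl6 (12.68 and 12.73, against 10.49 to 12.52) read within or close to their range in the epithelial line alone. They were named after their values were seen.

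Genes of prostaglandin synthesis, breakdown and reception, another route of signalling between stroma and epithelium, gave 2 of 20 (10%) above both lines and 0 below, beside 1.65% and 1.03% of all genes. Ptges, which makes prostaglandin E2, read 8.45 and 8.75, against 6.0, 5.74 and 6.27 in the epithelial line and 5.49, 5.28, 5.84 and 5.87 in the fibroblastic line, or 2.60 (SE 0.25, adjusted p = 0.000334) over the epithelial mean. Ptgis, the prostacyclin synthase gene, read 10.03 in the epithelial-labelled array and 0.03 less in the other, against 5.66 to 5.8 and 6.63 to 8.33. Neither call ended when an array was left out. Hpgd, which breaks prostaglandins down, was called below the equal mixture, at 9.86 in the epithelial-labelled and 7.32 in the fibroblastic-labelled array against 10.38 to 10.75 in the epithelial line. That call rested on the fibroblastic-labelled array, without which its adjusted p was 0.652.

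Among growth factors, Igfbp6 read 11.43 and 11.60, against 7.13, 6.68 and 6.68 in the epithelial line and 9.07, 8.85, 8.86 and 9.08 in the fibroblastic line. It was 2.55 (SE 0.19, adjusted p = 9.86e-05) over the fibroblastic mean. With Vegfa it made 2 of 31 (6.45%) stromal growth factor and receptor genes above both lines, beside 1.65% of all genes. In the TGF-beta family 2 of 31 (6.45%) were above both lines. Bmp7, a bone morphogenetic protein, read 8.16 and 7.74 against 5.31 to 6.0 and 4.80 to 5.16, and the inhibin subunit gene Inhbb read 5.37 and 7.64 against 3.71 to 5.18 in the lines. Bmp7 kept its call without any single array, and Inhbb lost it without the fibroblastic-labelled array (adjusted p = 0.346). Bambi, a decoy receptor of the TGF-beta family, lay below the mixture at 6.57 and 6.54 against 9.10 to 9.91 in the fibroblastic line. Of 14 EGF family and ErbB genes 0 lay outside both lines, beside 1.65% of all genes above and 1.03% below. In a list of this size a count of 0 is near those shares. Below the mixture 1 member (7.14%) was called, beside 4.38% of all genes. This was the ligand Nrg1, at 5.31 and 5.46 against 7.81 to 8.17 in the fibroblastic line. With the mean of its 8 probe sets that call ended (adjusted p = 0.105 against the mixture). Erbb2 (-0.14) and Met (-0.05) did not differ from the mixture by a called amount (adjusted p = 0.768 and 0.943).

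Interstitial matrix genes moved apart from each other. These encode the fibrillar collagens and the glycoproteins laid down beside them. Of 33 measured, 5 (15.2%) were above both lines and 0 below, while 7 were above and 4 below the equal mixture. Over all genes the same shares were 1.65%, 1.03%, 2.49% and 4.38%. Tnn, a tenascin of tumour stroma, read 11.78 and 11.86, against 3.84, 3.55 and 4.16 in the epithelial line and 7.42, 8.50, 8.45 and 8.92 in the fibroblastic line. The fibulin Fbln1 read 8.86 and 9.95, against 6.74, 6.05 and 5.55 and 4.92, 4.66, 4.66 and 4.77, and the minor collagen chain Col5a3 read 9.42 and 8.91, against 4.93 to 5.14 and 7.54 to 8.17. These 3 kept their calls without any single array, while that of Thbs2 (8.49 and 9.49, against 5.92 to 7.35 in the fibroblastic line) ended without the fibroblastic-labelled array (adjusted p = 0.0712). Col1a1 did not differ from the equal mixture by a called amount (0.11, SE 0.21, adjusted p = 0.823). In the other direction, Mgp, an inhibitor of calcification, read 4.52 and 5.25, against 4.63, 3.99 and 4.69 in the epithelial line and 13.61, 14.04, 13.44 and 14.15 in the fibroblastic line. The co-culture thus read near the epithelial line for a gene at the top of the scale in fibroblastic cells, a difference of -7.92 from the equal mixture (SE 0.28, adjusted p = 1.45e-05). Postn, the gene of the matrix protein periostin, read 10.83 and 10.26 against 13.99 to 14.10 in the fibroblastic line, a difference of -2.50 from the mixture. Col11a1 read 4.33 and 4.43 against 12.52, 8.80, 12.10 and 9.59 in the fibroblastic line, and its call ended without either co-culture array (adjusted p = 0.0941 and 0.0774). Fbln5 (6.77 and 7.27 against 10.14 to 11.32) lost its call without the epithelial-labelled array (adjusted p = 0.0621).

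Myofibroblast and mesenchymal genes went in both directions. Of 27 myofibroblast and mesenchymal genes, 3 (11.1%) were above both lines and 0 below, and 5 lay above and 4 below the equal mixture, beside 1.65%, 1.03%, 2.49% and 4.38% of all genes. Tagln, an actin-binding protein of smooth muscle, read 7.82 and 9.91, against 6.32, 6.12 and 6.09 in the epithelial line and 14.36, 11.91, 14.20 and 12.97 in the fibroblastic line, a difference of -3.51 from the mixture (SE 0.63, adjusted p = 0.0170). The myosin light chain Myl9 read 7.04 and 8.59, against 6.65 to 6.70 and 13.67, 11.52, 13.44 and 12.23. Both calls ended without the epithelial-labelled array (adjusted p = 0.228 and 0.0837). The enteric actin Actg2 read 4.56 and 4.62, no higher than the epithelial line (4.66 to 4.91), against 11.62, 8.64, 12.32 and 10.44 in the fibroblastic line, and its call ended without either co-culture array (adjusted p = 0.0713 and 0.0602). The myosin kinase gene Mylk, which drives contraction, read 5.26 and 6.79 against 11.39 to 12.28, and kept its call throughout. Acta2, the gene of the actin that defines the fibroblastic line, read 7.56 and 9.06, against 6.37, 6.45 and 7.90 in the epithelial line and 12.13, 9.29, 12.04 and 10.29 in the fibroblastic line. Its difference of -1.71 from the mixture (SE 0.82) was not called (adjusted p = 0.266). For Tagln, Myl9, Actg2, Mylk and Acta2 fibroblastic arrays 2 and 4 read below arrays 1 and 3, and both co-culture arrays read below all 4. Further contractile genes lay below the mixture without a call: Cnn1 (-2.78), Lmod1 (-1.54), Tpm1 (-0.82), Myh11 (-0.81) and Tpm2 (-0.54). Of these, Cnn1, Lmod1 and Tpm2 read below all 4 fibroblastic arrays in both co-culture arrays. Des, the muscle intermediate filament gene desmin, went the other way. It read 10.41 and 10.49, above all 7 other arrays, without a call (1.75 over the mixture, adjusted p = 0.0526). Cnn1, Lmod1, Tpm1, Myh11, Tpm2 and Des are named after their values were seen.

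Vim, the intermediate filament gene of mesenchymal cells, read 13.92 and 13.79, against 7.43 to 8.15 in epithelial arrays and 13.61 to 13.96 in fibroblastic arrays. Fibronectin, Fn1, read 13.84 and 13.74, against 4.13 to 4.67 and 13.58 to 13.76. Neither gene read below the fibroblastic line, although the keratins were high in the same arrays, and both were called above the equal mixture, by 1.09 (adjusted p = 0.0327) and 1.08 (adjusted p = 0.0144). These readings lie near the highest of the 9 arrays, 14.43, and any loss of response there was not tested. The calls ended without either co-culture array, that of Vim also without fibroblastic array 1, 2 or 4, and with a mixture of 1 part epithelial to 3 parts fibroblastic RNA (adjusted p = 0.221 and 0.146). The mesenchymal transcription factor genes Twist1 (9.53 and 9.82, against 8.68 to 9.11 in the fibroblastic line) and Twist2 (6.14 and 6.97, against 4.83 to 5.05) and the ectonucleotidase gene Nt5e (10.17 and 10.43, against 7.14 to 8.63) rose above both lines. The call of Twist1 over the fibroblastic line ended without the fibroblastic-labelled array (adjusted p = 0.118). Cdh11, a cadherin of mesenchymal cells, went the other way at 6.88 and 8.07 against 11.49 to 12.68, a difference of -3.73 from the mixture (SE 0.35, adjusted p = 0.00120).

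Basement membrane genes have products that underlie epithelia and surround vessels. Of 19 measured, 0 were above both lines, 0 below, 0 above the equal mixture and 5 (26.3%) below it. Over all genes the same shares were 1.65%, 1.03%, 2.49% and 4.38%. Col4a2, a chain of type IV collagen, read 5.63 and 5.68, against 6.19, 6.15 and 6.26 in the epithelial line and 9.70, 9.17, 8.98 and 8.97 in the fibroblastic line. Its partner chain Col4a1 read 6.64 and 6.75, against 4.83 to 5.75 and 10.22 to 11.43, and the laminin chain Lama4 read 6.82 and 7.15, against 5.06 to 5.56 and 10.90 to 11.04. The 3 genes differed from the mixture by -2.72, -3.0 and -3.0 in the order named and kept their calls without any single array. Col4a5 (6.83 and 7.71 against 9.94 to 11.06) lost its call without the epithelial-labelled array (adjusted p = 0.0738). Nid1 (10.37 and 11.06 against 12.39 to 12.94) lost it without that array (adjusted p = 0.335), without fibroblastic array 1 or 3, and with the mean of its probe sets. It was also lost with 3 parts epithelial to 1 part fibroblastic RNA (adjusted p = 0.953) and with each array's own position as the share (adjusted p = 0.0740). Of the 6 genes of this list that were at least 8-fold higher in the fibroblastic line, the median lay at 5.14% and 8.88% of the way from the epithelial to the fibroblastic mean in the epithelial-labelled and fibroblastic-labelled arrays. The same medians were 49.3% and 62.5% for 24 interstitial matrix genes and 29.1% and 77.6% for 17 myofibroblast and mesenchymal genes.

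**Figure D4:**
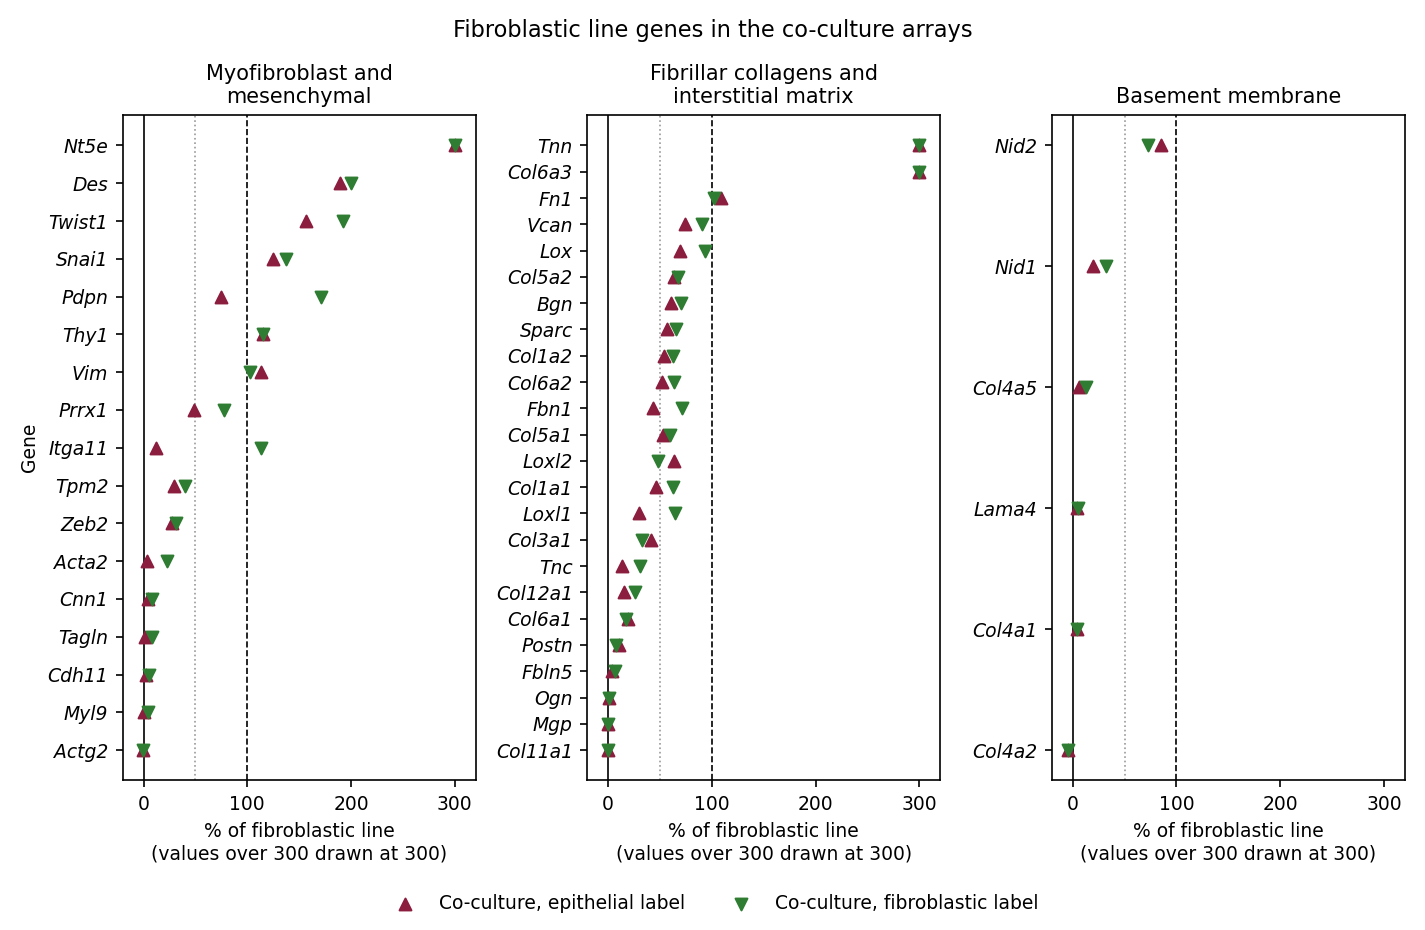
Level of genes at least 8-fold higher in the fibroblastic line, in each co-culture array (triangles), as a percentage of the way from the epithelial mean (0) to the fibroblastic mean (100) on the linear scale, for 17 myofibroblast and mesenchymal, 24 interstitial matrix and 6 basement membrane genes, with values beyond the axis drawn at its right end. Most basement membrane genes lie near 0 (medians 5.14% and 8.88%), while members of the other lists range from near 0, such as Mgp, Actg2 and Myl9, to beyond 100, such as Nt5e.

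Over all 531 genes at least 8-fold higher in the fibroblastic line, 148 (27.9%) were called below the equal mixture and 34 (6.4%) above it. Of the 355 genes at least 8-fold higher in the epithelial line, 11 (3.10%) were below and 14 (3.94%) above. These counts depend on the equal parts assumed. With 3 parts epithelial to 1 part fibroblastic RNA, 410 of the 623 genes called below the equal mixture over all genes kept that call. How many of the 148 were among them was not counted. In 33 of the fibroblastic genes both co-culture arrays read no higher than the highest epithelial array, and in 0 of the epithelial genes did both arrays read as low as the fibroblastic line. Among genes not called outside both lines, the largest differences below the mixture were those of Mgp, Gask1b, the potassium channel regulator gene Abcc9, Col11a1, Actg2 and Mylk. Gask1b read 4.89 and 6.46 against 11.93 to 12.97 in the fibroblastic line, a difference of -5.68 from the mixture (SE 0.31, adjusted p = 0.000102). Abcc9 read 3.19 and 3.16 against 8.07, 11.70, 7.83 and 10.97 in the fibroblastic line, and its call ended without either co-culture array or fibroblastic array 4, and with the mean of its probe sets. The largest above it, besides Reg3b and Egln3, were Aebp1, Pygl, Slc6a14 and Plet1. For Egln3, Aebp1, Pygl and Slc6a14 both co-culture arrays lay above all 7 others, but the contrast with the nearer line was not called. Aebp1, a matrix-associated protein of fibroblasts, read 10.85 and 11.01 against 10.37, 8.22, 8.72 and 7.17 in the fibroblastic line. Its call ended in 7 of the 9 fits without an array, all but those without fibroblastic array 1 or 4, and with 1 part epithelial to 3 parts fibroblastic RNA. Slc6a14, an amino acid transporter of epithelia, read 10.96 and 9.72 against 7.22, 8.63 and 9.62 in the epithelial line, and its call ended without either co-culture array, epithelial array 2 or fibroblastic array 4. That of the glycogen phosphorylase gene Pygl ended without either co-culture array, epithelial array 1 or any fibroblastic array, and that of Plet1 without the epithelial-labelled array. With 3 parts epithelial to 1 part fibroblastic RNA the calls of Pygl and Slc6a14 ended as well.

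Epithelial identity genes lay, in their median, close to the equal mixture. Over 28 junction and cholangiocyte genes the median difference from the mixture was 0.0119, beside -0.0849 over all genes. Outside both lines were 0 of them, beside 1.65% of all genes above and 1.03% below. Above the mixture were 0, beside 2.49% of all genes. Below the mixture 1 gene (3.57%) was called, beside 4.38%, so these counts are near the shares over all genes. That gene was the chloride channel Cftr, at 7.70 in the epithelial-labelled and 5.66 in the fibroblastic-labelled array against 8.84 to 9.65 in the epithelial line, and the call ended without the latter array (adjusted p = 0.383). Of 17 mucins and secreted epithelial products 4 (23.5%) were above both lines and 0 below, beside 1.65% and 1.03% of all genes. Lcn2, an iron-sequestering protein of inflamed epithelium, read 6.11 and 6.47, against 4.39 to 4.49 in epithelial arrays and 4.12 to 4.79 in fibroblastic arrays, and kept its call throughout. The calgranulin genes S100a9 (13.42 and 11.50, against 7.36, 9.80 and 10.53 in the epithelial line) and S100a8 (7.47 and 5.25, against 4.74 to 5.19) were higher in the epithelial-labelled array. Both lost their calls without it (adjusted p = 0.235 and 0.519), S100a9 also without epithelial array 2. Treating the co-culture arrays as 1 group also ended that of S100a8 (adjusted p = 0.0860). The mucin gene Muc4 (5.48 and 5.77, against 4.27 to 4.97) lost it without the fibroblastic-labelled array or epithelial array 1 or 2.

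Genes below both lines were spread thinly over the lists, with 1 called member in each of the sterol and the NRF2-linked list and 0 in the others. Me1, the malic enzyme that supplies reducing power for fatty acid synthesis, lay furthest below the range of the 7 arrays. It read 7.52 and 7.15, against 9.41, 9.01 and 9.17 in epithelial arrays and 9.23 to 10.01 in fibroblastic arrays, a difference of -1.86 from the epithelial mean (SE 0.30, adjusted p = 0.00559). Taf1c, a factor of ribosomal RNA transcription, read 6.65 and 6.52 against 7.53 to 8.51, Sprtn, a protease of DNA repair, 8.15 and 8.13 against 9.02 to 9.35, and Tmem126a, a mitochondrial protein, 8.14 and 8.49 against 9.35 to 9.79. Those 4 and Terf2ip and Tsnax were the 6 of the 20 genes furthest below both lines that kept their call whichever array was left out. The other 14, among them Ccnd2, Nr3c2, Il17re, Aars1, Gcat, Slc38a1, Etv6 and Oxct1, lost it without at least 1 array. Ccnd2, the cyclin D2 gene, read 7.28 and 7.55 against 10.44, 11.21 and 8.40 in epithelial arrays and 11.08 to 11.66 in fibroblastic arrays, and its call held only without epithelial array 3. In the sterol and fatty acid synthesis list 1 of 24 was below both lines, Hsd17b7, beside 1.03% of all genes. Below the equal mixture were 4 members, beside 4.38% of all genes, with a list median of -0.473. Against the epithelial line 9 of 24 were lower and 0 higher, beside 7.36% and 7.97% of all genes, and against the fibroblastic line 1 was lower and 4 higher. The list's mean was 9.20 and 8.94 in co-culture, 9.98 to 10.31 in epithelial arrays and 7.90 to 8.94 in fibroblastic arrays, so it lay within the span of the lines. Fasn, the fatty acid synthase, read 10.03 and 9.92, against 11.64 to 12.01 in epithelial arrays and 9.82 to 10.06 in fibroblastic arrays. Its difference of -1.18 from the mixture (SE 0.16, adjusted p = 0.00628) kept its call without any single array. The call of Hsd17b7 ended without either co-culture array or fibroblastic array 1, 2 or 4 (adjusted p up to 0.126).

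Of 36 proliferation genes measured, 0 were called outside both lines or against the mixture. Over all genes 1.65% and 1.03% were called above and below both lines, and 2.49% and 4.38% above and below the mixture. In a list of this size a count of 0 is near those shares. Mki67 read 10.15 and 10.53 against 9.39 to 10.39 in epithelial arrays and 7.77 to 10.22 in fibroblastic arrays. Counts above both lines in the further lists were 1 of 31 immediate early genes (Maff), 1 of 15 integrin subunits (Itga5), 1 of 27 interferon response genes (Usp18) and 2 of 13 complement genes (C1r and C3), with 0 below in each, beside 1.65% of all genes above both lines. Single genes of 31 (3.23%) and 27 (3.7%) are near that share. All 5 of those calls ended when an array was left out, the epithelial-labelled array in each case (adjusted p from 0.0737 for Usp18 to 0.361 for Itga5), and in 4 of them also the fibroblastic-labelled array, Itga5 being the exception. Of 24 NRF2-linked genes 0 were above both lines and 1 (Me1) below, and of 24 unfolded protein and amino acid stress genes 0 lay outside both lines. Over all genes 1.65% were above both lines and 1.03% below.

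The co-culture arrays were also set against each other, with 1 array per label and so without a test. They differed at least 2-fold in 352 genes, 206 higher in the epithelial-labelled and 146 higher in the fibroblastic-labelled array. Of the 206, 130 were called higher in the epithelial line alone and 12 in the fibroblastic line. Of the 146, 76 were called higher in the fibroblastic line and 26 in the epithelial line. Over all genes 20.9% were called higher in the epithelial line and 16.6% in the fibroblastic line. The 8 genes furthest toward the epithelial label were Fabp4, Pla2g2a, Car1, Reg3b, Agr2, Reg3g, Ly6al and Ms4a8. Fabp4, a fatty acid carrier, read 11.28 and 5.07, the phospholipase gene Pla2g2a 11.45 and 5.45, the carbonic anhydrase gene Car1 10.83 and 4.89, the antimicrobial lectin Reg3b 12.59 and 6.66, and Agr2, a chaperone of mucin-secreting cells, 10.59 and 5.28 in the epithelial-labelled and fibroblastic-labelled array. The same genes varied among the epithelial cultures grown alone: Car1 read 4.36, 13.54 and 11.83, Fabp4 5.78, 13.47 and 6.82, and Agr2 6.83, 11.65 and 12.10 in epithelial arrays 1, 2 and 3. Of the 206 genes, 79.6% varied by at least 2-fold among the epithelial arrays and 80.1% were lowest in epithelial array 1, beside 11% and 30% of all genes. The call of Reg3b above the mixture rested on the epithelial-labelled array, without which its adjusted p was 0.870. The chemokine Cxcl12 led the other direction at 4.88 and 9.32, against 8.39 to 10.10 in the fibroblastic line, followed by the neuropeptide gene Vip (4.61 and 8.61, against 3.93 to 4.39 in both lines), Wfdc21 (6.61 and 9.99) and the integrin gene Itga11 (6.78 and 9.79, against 11.98, 7.49, 11.43 and 7.55 in the fibroblastic line). Vip and Wfdc21 were called above both lines, and those calls ended without the fibroblastic-labelled array (adjusted p = 0.315 and 0.427) or with the co-culture arrays as 1 group (adjusted p = 0.0861 and 0.0718).

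**Figure D5:**
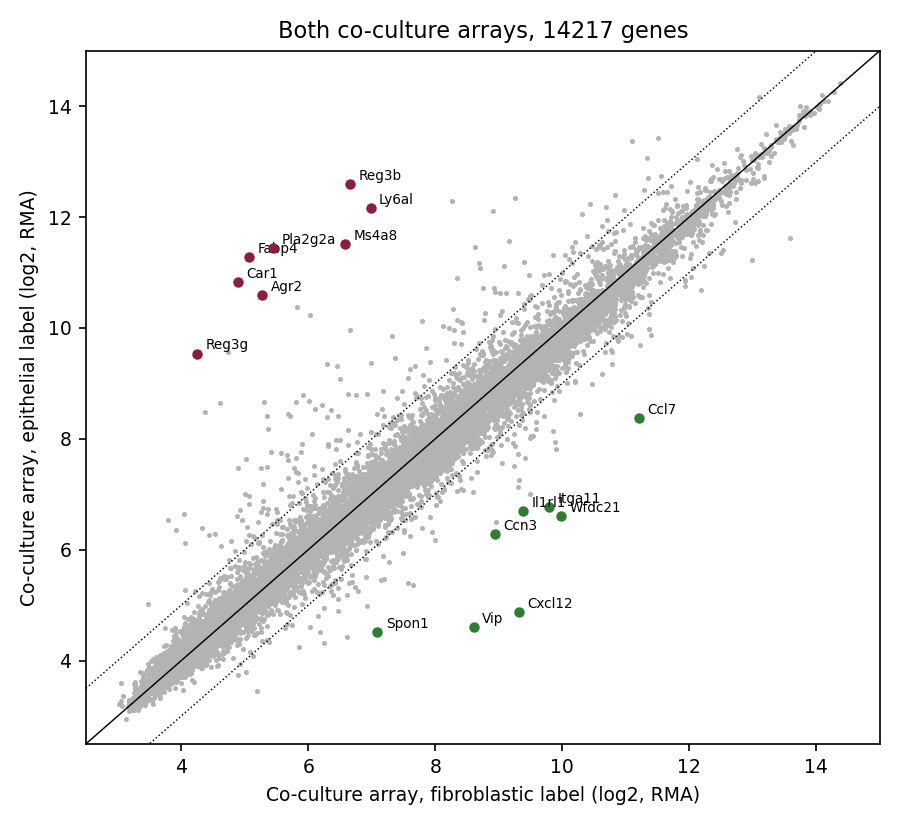
Expression of 14217 genes in the fibroblastic-labelled (x axis) and epithelial-labelled (y axis) co-culture arrays, both in log2, with the line of equality and dotted lines at a 2-fold difference. Most genes (97.5%) lie within the dotted lines, and the 8 genes furthest apart in each direction are named, led by Fabp4 at 11.28 against 5.07 and Cxcl12 at 4.88 against 9.32.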

How the data were processed

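RNA from 13 samples was hybridised to Affymetrix arrays, and 9 of the arrays enter the comparisons. The authors deposited log2 expression values per probe set, made with RMA per the submitters' processing notes; the labels give neither its version nor whether it was run on all arrays at once. Precision is limited by how few arrays there are. Of 31099 probe sets, 20826 had 1 gene symbol in the platform annotation, 436 several and 9780 none, and 57 were controls; each of 14217 genes was read from its brightest probe set. limma 3.58.1 in R 4.3.3 fitted the epithelial line, the fibroblastic line and each co-culture array as separate groups, and contrasts of the mean of the co-culture arrays were tested two-sided with Benjamini-Hochberg adjustment over all genes. Every adjusted p in the text comes from this limma fit or, where an alternative is named beside it, from a limma refit under that alternative. The standard error against the equal mixture came from the delta method. Figures were drawn with matplotlib 3.10.9, and summaries used numpy 2.4.6 and pandas 2.3.3 under Python 3.11.15. The code was tested on simulated data.

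Named were the 20 genes furthest outside both lines in each direction and up to 4 called members per list and direction. Among genes called against the mixture but not called outside both lines, the 6 furthest from it in each direction were named. The 8 furthest between the co-culture arrays in each direction and 14 markers were named too. Other members were named after their values were seen. The members and lists were chosen with earlier results of these data known. Alternatives changed the arrays fitted, the grouping, normalization, low-value filter, probe sets, moderation, thresholds, mixing ratio and replicate block (statmod 1.5.0). Tumour arrays entered the fit in only 1 alternative. They also counted in the choice of each gene's brightest probe set, which was taken by the mean over all arrays of the series.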

Additional observations from a re-analysis of the deposited data

Results flagged for a closer look

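Among the 110 genes named by rule, 2 had a fibroblastic array far from the other 3 of its line. Gfpt2 read 5.06 in fibroblastic array 4 against 5.43, 5.49 and 5.5 in the others, and Fn1 read 13.6 in fibroblastic array 4 against 13.73 to 13.76. Chance gives such a gap in about 1 in 20 groups.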

How the results depend on the processing

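The main counts were 234 genes above both lines, 146 below both, 354 above the equal mixture and 623 below it. At an adjusted p under 0.01 they were 120, 19, 145 and 145. A difference of at least 2-fold left 47 below both lines and 371 below the mixture, and leaving out genes of low mean expression left 147 above both lines. With all 13 arrays in the fit there were 279 below both lines, 540 above the mixture and 1171 below it. A mixture of 3 parts epithelial to 1 part fibroblastic gave 543 above it and 653 below it, of which 410 were among the 623. Leaving out 1 array gave 133 to 218 above both lines, 23 to 126 below both, 148 to 333 above the mixture and 125 to 540 below it. The cause of these changes was not tested, apart from the fewer arrays, fewer genes or stricter limits themselves.

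With the replicate number of the lines as a block the counts were 231, 144, 346 and 581. Deviations of same-numbered arrays from their line means correlated weakly (0.143, 0.1 and -0.0382), and the correlation within blocks was 0.142. So few arrays cannot settle whether the numbers pair the cultures.

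Of the named results that were called, 3057 values under the alternatives kept direction and call, 292 lost the call and 0 reversed. Among those not called, 7 values became called and 12 changed sign. With 3 parts epithelial to 1 part fibroblastic, Krt19 was -0.30, Krt7 -0.32 and Cdh1 -0.29 against the mixture. Col1a1 against the equal mixture was -0.031 with the mean of its probe sets, -0.124 without fibroblastic arrays 2 and 4 and -0.475 with 1 part epithelial to 3 parts fibroblastic, and -0.106 to 0.319 when 1 array was left out. With 1 part to 3, Erbb2 was 0.379 and Met 0.171. When 1 array was left out, Erbb2 against the equal mixture ranged from -0.282 to 0.00483 and Met against the equal mixture from -0.265 to 0.165.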
